A study of Mus musculus with 4 samples.

Results

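The 10 genes described here, of serine synthesis and of the ATF4 stress pathway, were followed through the cells of mouse bone. They were Phgdh, Psat1, Psph, Shmt2, Mthfd2, Asns, Atf4, Ddit3, Trib3 and Chac1, and they were taken by symbol as 10 of the 31053 genes counted in every library. The samples were bone tissue of wild-type mice, 2 controls (Ctrl) without treatment and 2 mice under hindlimb unloading (HLU), in which the tail is suspended so that the hind limbs bear no load, for 28 days. Each mouse gave 1 single-cell library from tibiae and femurs whose marrow had been flushed out before enzymatic digestion. The age of the mice is given as postnatal day 28 in the series text. The study's methods give 8 weeks for mice that were then suspended for 28 days, and the age was not settled here. The level of a gene is given as counts per 1000000 (CPM), the number of its unique molecular identifiers (UMIs, 1 per captured mRNA molecule) per 1000000 UMIs of a population in 1 library. A kept cell had 1000 to 40000 UMIs of which at most 10% were mitochondrial, which left 32217 cells of 4 libraries.

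Serine is made from a glycolytic intermediate by Phgdh, the entry enzyme of the pathway, followed by the aminotransferase Psat1 and the phosphatase Psph. Shmt2 and Mthfd2 work in mitochondria, where Shmt2 splits serine into glycine and a carbon unit carried by folate and Mthfd2 oxidises that unit for purine synthesis, while Asns makes asparagine with nitrogen from glutamine. Atf4 is a transcription factor whose translation rises when stress kinases phosphorylate the initiation factor eIF2alpha, and all 6 enzymes are known ATF4 targets. Ddit3 (CHOP, a transcription factor), Trib3 (a pseudokinase) and Chac1 (an enzyme that breaks down glutathione) are further ATF4 targets, known from prolonged endoplasmic reticulum stress and amino acid shortage. The libraries measured mRNA, so the translation of Atf4 was not measured.

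The element through which ATF4 pairs with C/EBP factors was looked for in the promoters of the 10 genes, from 250 bases before to 50 bases after the start in the RefSeq table of build GRCm38.p6, and all 10 genes matched an entry. The letters TGATGNAA, read on both strands, occurred in 3 of the 10 genes (Asns, Trib3 and Chac1) and in 3.97% of the 32851 promoters. The wider form TGNNGCAA, chosen after the members' promoters had been read, occurred in 3 of the 10 (Psat1, Trib3 and Chac1) and in 11.4% of promoters. The windows below are printed 5′ to 3′ on the gene's own strand because they hold these matches, which are in capitals. The match in Asns and that at 193 bases before the start of Chac1 are of the narrower form, and the latter fits the wider form too. The narrower match of Trib3 lies after its start and is not printed.
Psat1 (chr19:15925141-15925240, minus strand, 181 to 82 bases before the start of 1 of its 2 RefSeq entries): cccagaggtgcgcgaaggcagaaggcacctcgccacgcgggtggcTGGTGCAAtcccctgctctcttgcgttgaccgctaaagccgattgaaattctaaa
Asns (chr6:7693214-7693243, minus strand, 34 to 5 bases before the RefSeq start and inside an exon of Asns in the GENCODE annotation): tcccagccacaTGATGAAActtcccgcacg
Trib3 (chr2:152344061-152344160, minus strand, 100 to 1 bases before the start): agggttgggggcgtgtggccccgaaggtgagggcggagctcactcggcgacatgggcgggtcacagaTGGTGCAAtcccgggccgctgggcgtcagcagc
Chac1 (chr2:119350992-119351091, plus strand, 250 to 151 bases before the start): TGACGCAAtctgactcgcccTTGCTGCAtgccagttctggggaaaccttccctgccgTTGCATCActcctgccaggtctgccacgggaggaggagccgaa
A match is a description of the letters and was not tested for binding.

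Populations were gated by marker genes that do not include the 10 members, and the counts of a population were summed in each library. The neutrophil lineage was split into progenitors with primary granule transcripts (Mpo, Elane, Prtn3), immature neutrophils with secondary granule transcripts (Camp, Ngp, Ltf), mature neutrophils (Cxcr2, Retnlg, Mmp9) and transitional cells that passed both of the last gates. With replicates 1 and 2 of Ctrl given before replicates 1 and 2 of HLU, as in every list of 4 values, the progenitor gate held 87, 120, 200 and 379 cells, the immature gate 491, 750, 1125 and 1685, and the mature gate 1137, 1552, 2663 and 1798. Primary granule markers made up 1.70% to 2.12% of the UMIs of primary granule progenitors and at most 0.00702% of those of mature neutrophils. Markers of all B cells held at most 0.00421% of the UMIs of primary granule progenitors and markers of T cells at most 0.000239%. These low shares follow in part from the gates, which left out 376 cells that passed for more than 1 lineage. Of all kept cells, 9541 (29.6%) passed no gate. Monocyte markers held 0.148%, 0.185%, 0.219% and 0.652% of the UMIs of primary granule progenitors, so HLU replicate 2 stood apart, and the part of this in its values was not tested. Cells with primary granule and monocyte markers were gated apart as monocyte progenitors, 1, 2, 3 and 123 cells. The progenitor gate may therefore hold cells that are not of the neutrophil lineage. Kept UMIs ranged from 45347595 to 87604282 per library, and the libraries shared 13 to 21 barcodes pairwise. HLU replicate 2 had the most UMIs, and its progenitors had a median of 23396 UMIs per cell against 10638 to 13524 in the other libraries.

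Between the progenitor and mature gates the members differed in both directions. All 6 enzymes were higher in progenitors than in mature neutrophils, by 40.6-fold for Phgdh down to 1.62-fold for Asns, while Atf4, Ddit3 and Trib3 were lower and Chac1 did not pass the test. Thus 9 of the 10 members, 6 higher and 3 lower, were called (adjusted p under 0.05) by the quasi-likelihood test of edgeR, which was fitted on 10491 genes with the library as a block. Of all genes tested 36.6% were higher in progenitors and 36.6% were lower, so a change in itself was common in this comparison. The median log2 fold change was 0.87 over the members and -0.00 over all genes tested. The samples are separate mice, and with the library as a block the p-values measure the spread of the stage difference over these 4 libraries.

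**Figure D1:**
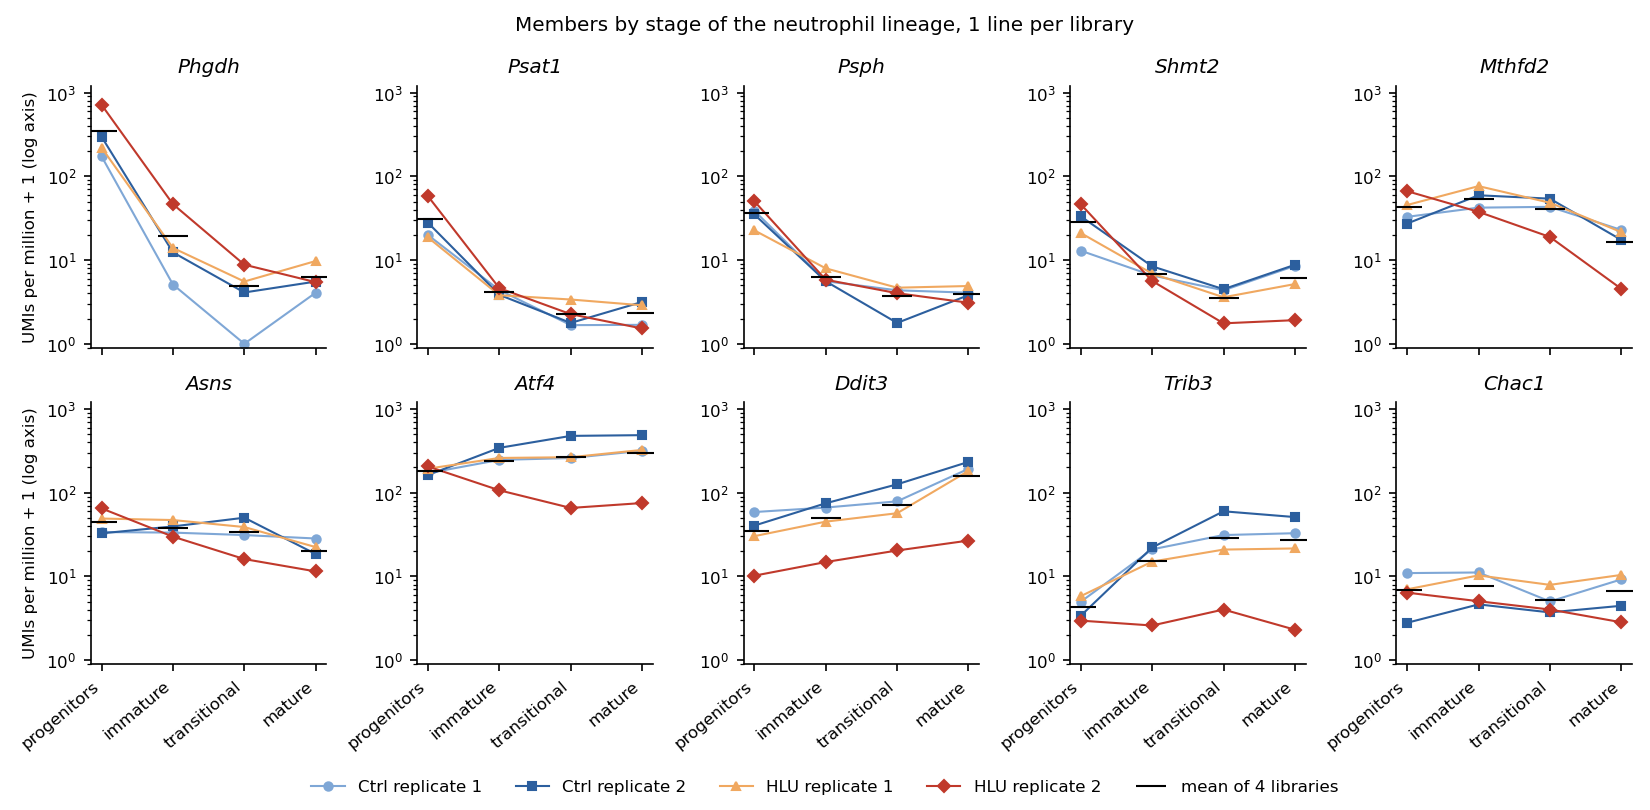
Levels of the 10 genes along the neutrophil lineage, in CPM plus 1 on a log axis. Each line is 1 library (blue, Ctrl; orange and red, HLU) and the black bar is the mean of the 4 libraries. Phgdh, Psat1, Psph and Shmt2 drop between the progenitor and immature gates in all 4 libraries, Ddit3 climbs towards the mature gate in all 4, and HLU replicate 2 lies lowest for Atf4, Ddit3 and Trib3 in mature neutrophils.

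Phgdh, the entry enzyme, had the steepest fall. Its level in progenitors was 172, 296, 219 and 714 CPM, and in mature neutrophils it was 3.08, 4.54, 8.74 and 4.45. The groups of values did not overlap, and the lowest progenitor value was far above the highest mature value. The log2 difference was 5.34 ± 0.36 (SE, n = 4 libraries, adjusted p = 1.26e-06 with edgeR). Read per cell, 58.6%, 69.2%, 65.5% and 96.3% of progenitors and 0.528%, 0.967%, 1.54% and 1.72% of mature neutrophils held at least 1 Phgdh UMI, at medians of 10638 to 23396 and 2054 to 3876.5 UMIs per cell. Thinned to 1000 UMIs in every cell, the shares were 13.8%, 25.0%, 17.5% and 46.4% in progenitors and 0.176%, 0.322%, 0.864% and 0.445% in mature neutrophils.

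Psat1 and Psph, the next steps of serine synthesis, fell in the same order. Psat1 stood at 18.9, 26.9, 17.6 and 56.9 CPM in progenitors and at 0.684, 2.16, 1.88 and 0.524 in mature neutrophils. Its log2 difference was 3.82 ± 0.45 (SE, n = 4, adjusted p = 3.40e-05 with edgeR). In mature neutrophils it was near the limit of these sums, since 2 to 14 cells per library held a Psat1 UMI there. Psph stood at 37.8, 34.1, 21.6 and 49.3 in progenitors and at 3.08, 2.81, 3.90 and 2.09 in mature neutrophils, a log2 difference of 2.95 ± 0.32 (SE, n = 4, adjusted p = 1.70e-05). No value of either gene overlapped between the gates.

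The mitochondrial folate enzymes and Asns differed less. Shmt2 was at 11.9, 32.3, 20.04 and 45.4 CPM in progenitors and at 7.52, 7.78, 4.17 and 0.916 in mature neutrophils, with a log2 difference of 2.04 ± 0.50 (SE, n = 4, adjusted p = 0.00408 with edgeR). Mthfd2 was at 31.9, 26.3, 44.5 and 65.5 in progenitors and 21.9, 16.4, 20.6 and 3.53 in mature neutrophils, a log2 difference of 1.04 ± 0.43 (SE, n = 4, adjusted p = 0.0493). Asns was at 32.8, 31.7, 48.1 and 63.9 against 27.4, 17.5, 21.4 and 10.5, a log2 difference of 0.69 ± 0.26 (SE, n = 4, adjusted p = 0.0346). Both genes were higher in progenitors in all 4 libraries, but the calls were lost in some settings. Of the 6 members called higher, 5 were called without the library as a block (3248 of 9257 genes). With cells thinned to 1000 UMIs 5 members were called higher too (2152 of 7159 genes). The reason for these losses was not tested. Without HLU replicate 1 the adjusted p with edgeR was 0.075 for Mthfd2 and 0.111 for Asns, and without Ctrl replicate 2 it was 0.0657 for Asns. With only non-dividing cells kept in both gates it was 0.267 for Mthfd2 (log2 difference 0.61) and 0.0843 for Asns (0.54). That setting kept 334 of the 786 progenitors, since cells between the dividing and non-dividing classes were left out as well.

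The stress genes ran the other way. Ddit3 was at 57.7, 39.5, 29.3 and 9.20 CPM in progenitors and at 192, 232, 181 and 25.8 in mature neutrophils. It was lower in progenitors in 4 of 4 libraries, with a log2 difference of -2.67 ± 0.25 (SE, n = 4, adjusted p = 7.24e-06 with edgeR). The gates overlapped only through HLU replicate 2, whose mature neutrophils lay below the progenitors of the other 3 libraries. Ddit3 overlaps another annotated gene, AC144852.1, to which 0 UMIs were assigned in every library, so its counts could depend on how reads of the shared part were assigned. Trib3 was at 3.98, 2.39, 4.81 and 1.963 in progenitors and at 31.8, 50.1, 20.6 and 1.31 in mature neutrophils. Its log2 difference was -2.72 ± 0.52 (SE, n = 4, adjusted p = 0.0009), and it was lower in 3 of 4 libraries, with HLU replicate 2 at 1 to 2 CPM in both gates.

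Atf4 itself differed least among the called genes of this arm. Its level was 170.2, 161, 192 and 205 CPM in progenitors and 316, 486, 323 and 74.2 in mature neutrophils, so that HLU replicate 2 went against the other 3 libraries. The log2 difference was -1.01 ± 0.34 (SE, n = 4, adjusted p = 0.0201 with edgeR). The call was lost without Ctrl replicate 1 (adjusted p = 0.0617), without Ctrl replicate 2 (0.121), without HLU replicate 1 (0.0715), with stricter gates (0.0591) and without TMM scaling (log2 difference -0.48, adjusted p = 0.361). Chac1 stood at 9.95, 1.79, 6.01 and 5.398 in progenitors and 8.21, 3.46, 9.41 and 1.83 in mature neutrophils, and its log2 difference of -0.41 had a 95% interval of -1.20 to 0.38 (a normal approximation from the SE, as for every interval given, and so on the narrow side with 4 libraries). TMM scaling sets the bulk of genes to no change: without it the median over all genes was 0.58, and 4592 genes were called higher and 2484 lower in place of 3843 and 3844. The other 8 called members kept their side under that setting.

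The lineage was next split into its steps. Between progenitors and immature neutrophils 4 members were higher in progenitors, Phgdh by a log2 difference of 3.96 ± 0.25, Psat1 by 2.75 ± 0.24, Psph by 2.27 ± 0.26 and Shmt2 by 1.78 ± 0.27 (SE, n = 4). In the same step 4 members were lower in progenitors, Mthfd2 by -0.75 ± 0.25, Atf4 by -0.70 ± 0.24, Ddit3 by -1.01 ± 0.18 and Trib3 by -1.93 ± 0.41, while Asns at -0.16 ± 0.19 and Chac1 at -0.63 ± 0.28 did not pass. The levels of HLU replicate 2 went against 3 of these lower calls, with Mthfd2 at 65.5 CPM in progenitors and 36.7 in immature neutrophils, Atf4 at 205 and 106, and Trib3 at 1.963 and 1.59, while the other 3 libraries were lower in progenitors for all 4 genes. Of 10724 genes 26.8% were higher and 29.6% lower in progenitors. Without TMM scaling the median of all genes was 0.39, the split of calls 4181 higher and 1482 lower in place of 2876 and 3178, and the calls of Mthfd2 (adjusted p = 0.378) and Atf4 (0.424) were lost. Both were also lost without HLU replicate 1 (0.0937 and 0.0778) and without Ctrl replicate 2 (0.14 and 0.164), and Atf4 without Ctrl replicate 1 (0.0509).

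Between immature and mature neutrophils 5 members were higher in immature cells and 2 lower. Mthfd2 was at 41.3, 58.4, 75.4 and 36.7 CPM in immature neutrophils, above every mature value, with a log2 difference of 1.92 ± 0.27 (SE, n = 4, adjusted p = 0.000281 with edgeR). Asns was at 32.4, 38.5, 46.1 and 28.9, a log2 difference of 0.97 ± 0.18 (SE, n = 4, adjusted p = 0.00125). Phgdh (1.52 ± 0.41), Psat1 (1.25 ± 0.42) and Psph (0.81 ± 0.23) were higher too, Ddit3 (-1.58 ± 0.16) and Trib3 (-0.68 ± 0.20) were lower, and Shmt2, Atf4 and Chac1 lay between -0.21 and 0.46 and did not pass. In this comparison 32.2% of 10566 genes were higher and 30.9% lower. Several of these calls were not stable. Without the library as a block 0 members were called lower, so Ddit3 and Trib3 were both lost, where 4390 of 9602 genes were called. DESeq2 did not call Psat1 (adjusted p = 0.051) or Psph (0.0722), and stricter gates did not call Psat1 (0.165) or Trib3 (0.0773). With a library left out, Psat1 was not called without HLU replicate 2 (adjusted p = 0.0878) or Ctrl replicate 1 (0.0858), Psph without HLU replicate 1 (0.067) and Trib3 without Ctrl replicate 2 (0.109), while Atf4 was called without HLU replicate 2 (-0.35, 0.00573).

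**Figure D2:**
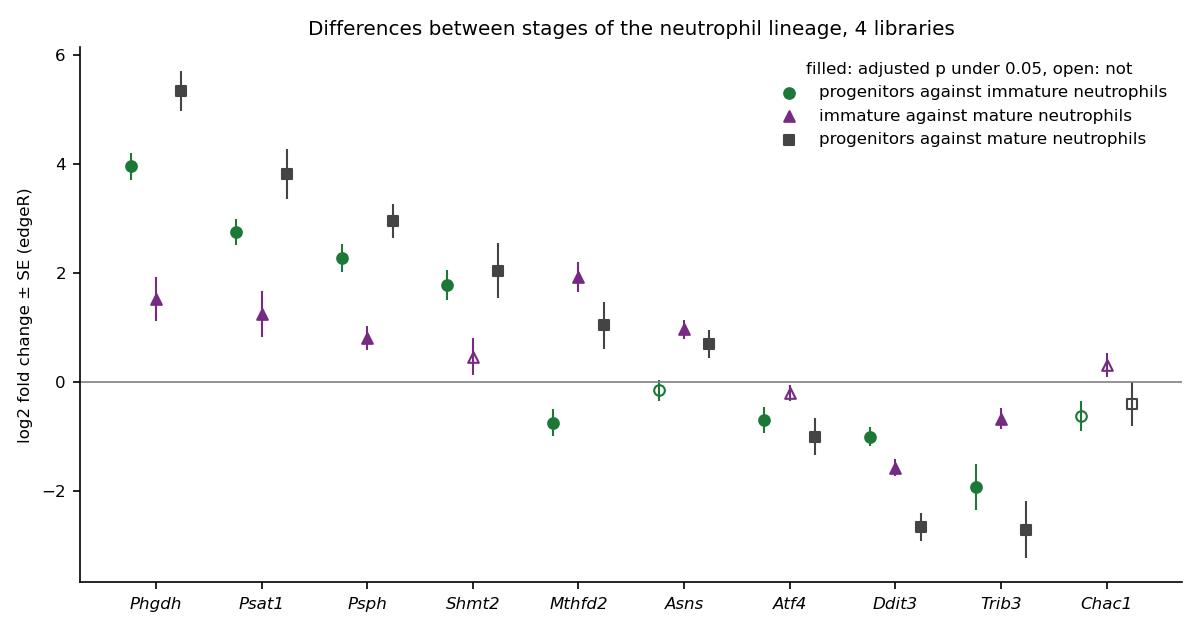
Log2 fold change of each gene in 3 comparisons of neutrophil stages, with SE bars from edgeR on 4 libraries (filled symbols, adjusted p under 0.05). Phgdh, Psat1, Psph and Shmt2 show the larger difference at the progenitor step (green), Mthfd2 and Asns at the immature to mature step (purple), and Ddit3 is below 0 in all 3.

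Dividing cells were compared with non-dividing cells of the same gate, because progenitors and immature neutrophils both hold cycling cells. Among immature neutrophils Mthfd2 was higher in dividing cells, at 63.0, 74.5, 108 and 51.2 CPM against 22.9, 38.3, 50.5 and 16.9, and every dividing value lay above every non-dividing value. Its log2 difference was 1.10 ± 0.11 (SE, n = 4, adjusted p = 1.60e-05 with edgeR). Shmt2 was also higher (0.93 ± 0.28, adjusted p = 0.0201), but not without HLU replicate 1 (0.0683), and the other 8 members did not pass against 19.2% of 9237 genes higher and 22.5% lower. Phgdh did not differ there beyond its error, with a log2 difference of 0.09 and a 95% interval of -0.40 to 0.58. Among progenitors 8 members could be tested and Psat1 was higher in dividing cells (0.96 ± 0.21, adjusted p = 0.00366), where 5.07% of 7551 genes were higher and 2.79% lower. Phgdh was at 145, 270.5, 216 and 705 in dividing and 204, 270.6, 249 and 716 in non-dividing progenitors, a log2 difference of -0.22 with an interval of -0.44 to -0.00. Without HLU replicate 2 Psat1 was not called (adjusted p = 0.0913) and Psph was (1.30 ± 0.32, adjusted p = 0.0116). Without TMM scaling the splits moved to 2312 higher and 1169 lower from 1769 and 2074 in immature neutrophils, and to 462 and 132 from 383 and 211 in progenitors, and Mthfd2 (0.041) and Atf4 (0.0364) were then called in dividing progenitors.

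The wider pathway was read in the same comparison of progenitors with mature neutrophils, where 36.6% of all genes tested were higher and 36.6% lower. Of 17 tested genes of folate and glycine metabolism 10 were higher in progenitors and 0 lower, with a median log2 difference of 1.57. An unadjusted p under 0.05 was found for 12 of these 17 and for 7913 of all 10491 genes. The higher genes included Tyms, which makes thymidylate, at 4.50 ± 0.42, Shmt1, the cytosolic partner of Shmt2, at 4.30 ± 0.52, Mthfd1 at 2.84 ± 0.57 and Atic of purine synthesis at 2.74 ± 0.45. Shmt1 and Mthfd1 had low means of 0.339 and 0.929 CPM in mature neutrophils. In progenitors they were at 12.5 ± 11.1 and 10.6 ± 12.3 (mean ± SD), so the libraries differed widely. The whole list summed to 200, 291, 246 and 513 CPM in progenitors, highest in HLU replicate 2, and to at most 123 in mature neutrophils. Of 20 aminoacyl-tRNA synthetases, which charge tRNAs and of which many are ATF4 targets, 15 were higher and 0 lower, led by Farsb (3.72 ± 0.30), Vars (3.17 ± 0.39), Tars (2.72 ± 0.41) and Farsa (2.55 ± 0.27). The synthetases summed to 602, 789, 684 and 1516 CPM in progenitors, again highest in HLU replicate 2, and to at most 349 in mature neutrophils. Of 12 tested genes of amino acid uptake and supply 4 were higher and 3 lower, neither above the share over all genes. The cystine carrier Slc7a11 was lower at -2.92 ± 0.31, as was its partner chain Slc3a2 at -1.76 ± 0.20, whereas Slc43a1 (2.91 ± 0.82) and Aldh18a1 of proline synthesis (2.25 ± 0.59) were higher. Slc43a1 had low means in both gates, 2.40 CPM in progenitors and 0.167 in mature neutrophils.

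Listed ATF4 and stress response targets outside the 10 members had the sign of Ddit3 and Trib3 where called between progenitors and mature neutrophils. The enzyme members and the called synthetases, many of them ATF4 targets too, went the other way. Of all genes tested 36.6% were higher in progenitors and 36.6% lower. Of 18 tested ATF4 and stress response targets 0 were higher and 11 lower in progenitors, with a median of -1.39. They included Sesn2, an inhibitor of mTORC1, at -4.41 ± 0.25, Atf3 at -3.97 ± 0.28, Nfil3 at -3.47 ± 0.22 and Cebpb at -2.82 ± 0.32 (SE, n = 4). Between progenitors and immature neutrophils 3 of the 18 were higher and 8 lower, against 26.8% and 29.6% of all genes. Among 14 genes of eIF2alpha control 8 were higher in progenitors than in mature neutrophils and 5 lower, the latter near the share over all genes. The exchange factor subunits Eif2b3 (3.03 ± 0.46) and Eif2b1 (2.78 ± 0.26) were higher, and the kinase Eif2ak3 (-2.13 ± 0.32) and the phosphatase subunit Ppp1r15b (-2.12 ± 0.20) lower. Eif2b3 differed widely between the progenitor sums, at 14.4 ± 14.7 CPM (mean ± SD). Genes of endoplasmic reticulum chaperones and the unfolded protein response mostly went the other way from those targets, with 11 of 18 higher and 3 lower. The higher ones included Sdf2l1 (2.85 ± 0.64), Manf (2.69 ± 0.33), Sec61b (2.51 ± 0.30) and Pdia4 (2.03 ± 0.40).

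Other sets of transcripts moved with the same contrast, in which 36.6% of all genes tested were higher in progenitors and 36.6% lower. Of 15 genes known to be induced by tissue dissociation 0 were higher and 12 lower in progenitors, such as Zfp36 (-4.09 ± 0.23), Dusp1 (-3.95 ± 0.23), Btg2 (-3.46 ± 0.22) and Junb (-3.15 ± 0.21). Their summed level was 1400.4, 1407, 1425 and 1067 CPM in progenitors and 7164, 6655, 4884 and 2450.2 in mature neutrophils. All 10 markers of dividing cells were higher, led by Tpx2 (4.88 ± 0.28), Ube2c (4.71 ± 0.23), Ccnb2 (4.57 ± 0.26) and Cdk1 (4.51 ± 0.24). Transcripts of other cells were lower in progenitors, with 10 of 12 cartilage and bone genes (Col1a1, -3.52 ± 0.34; Mgp, -2.97 ± 0.27; Col1a2, -2.88 ± 0.35; Comp, -2.46 ± 0.24) and 4 of 4 haemoglobin genes (Hbb-bs at -3.38 ± 0.25, Hbb-bt at -2.77 ± 0.33, Hba-a2 at -2.75 ± 0.35, Hba-a1 at -2.67 ± 0.36). Of 8 abundant neutrophil transcripts, of which Retnlg, Camp, Ngp and Ltf were themselves gate markers, 6 were lower (Retnlg, -7.20 ± 0.47, Lcn2, -3.47 ± 0.23, S100a8, -2.30 ± 0.30, S100a9, -2.29 ± 0.32). The part of these sets in the members' differences was not tested.

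In the B lineage Phgdh did not pass the test between stages. Precursor B cells, marked by Vpreb1, Igll1 and Rag1, were compared with mature B cells in the 3 libraries that held them, with 32, 32 and 111 precursor cells, since HLU replicate 2 had 0 cells in the precursor gate. Phgdh was at 162, 159.6 and 174 CPM in precursors and at 181, 123 and 252 in mature B cells of the same libraries, and its log2 difference of -0.19 had a 95% interval of -0.62 to 0.25. Of 8 members tested 0 were higher and 3 lower in precursors, Psph by -1.75 ± 0.36 (adjusted p = 0.00225 with edgeR), Shmt2 by -1.72 ± 0.34 (0.00153) and Mthfd2 by -1.40 ± 0.32 (0.00488), where 12.2% of 6102 genes were higher and 9.73% lower. Without HLU replicate 1, Shmt2 (0.174) and Mthfd2 (0.263) were not called and Psph was not tested, and DESeq2 called none of the 3.

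Monocytes, which arise from progenitors shared with neutrophils, held more Phgdh, Psat1 and Mthfd2 than mature neutrophils, while Psph (0.72, adjusted p = 0.105) and Shmt2 (1.35, 0.059) did not pass. Phgdh was at 23.7, 35.2, 67.5 and 122 CPM in monocytes, a log2 difference of 2.53 ± 0.32 (SE, n = 4, adjusted p = 0.000565 with edgeR), and every value lay above those of mature neutrophils. Psat1 (2.58 ± 0.50, adjusted p = 0.00368) and Mthfd2 (1.71 ± 0.41, 0.00974) were higher as well, Ddit3 (-2.92 ± 0.24, 0.000104) and Trib3 (-1.50 ± 0.31, 0.005) were lower, and 31.4% of 10790 genes were higher and 31.9% lower. Scaling mattered here. Without TMM the median of all genes was 0.99 and the split 5808 higher and 1551 lower in place of 3384 and 3440, Psph (1.65), Shmt2 (2.26) and Asns (0.93) were then called higher and Trib3 (-0.60, adjusted p = 0.133) was not called. Shmt2 was called without HLU replicate 2 (0.0252) or Ctrl replicate 1 (0.0445), and Atf4 was called lower without HLU replicate 2 (-0.80, 0.000781). In place of 3 members, 5 were called higher with stricter gates (3251 of 10127 genes) and with putative doublets removed (3521 of 10724). DESeq2 called 4 higher (3420 of 10790 genes), as did the fit with no filter on low counts (3905 of 17665).

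Over the 8 populations with at least 20 cells in every library, each gene had its own order of mean levels in CPM (mean ± SD, n = 4). Phgdh was highest in progenitors (350.3 ± 248) and mature B cells (191 ± 53.5), whose ranges overlapped, and the next, monocytes (62.0 ± 43.9), lay wholly below mature B cells. Psat1 was highest in mature B cells (31.5 ± 12.5) and progenitors (30.1 ± 18.4), and Shmt2 in mature B cells (89.6 ± 26.5) and chondrocytes (85.0 ± 38.7), with overlapping ranges in each pair. Psph (67.0 ± 53.3), Mthfd2 (112 ± 30.6), Asns (97.3 ± 31.6), Atf4 (472 ± 37.0), Trib3 (29.8 ± 16.9) and Chac1 (43.7 ± 25.7) were highest in chondrocytes. For Atf4 that range lay above all values of the next population, mature B cells (330 ± 66.1), and for the other 5 it overlapped the next. These means pool both groups, and the HLU chondrocytes were 21 and 46 cells. In the 2 Ctrl libraries alone Psph was highest in mature B cells (40.5 ± 16.1, against 21.6 ± 11.2 in chondrocytes) and Trib3 in transitional neutrophils (44.6 ± 20.3, against 20.1 in chondrocytes), and the other 8 genes kept their top population. Ddit3 was highest in mature neutrophils (158 ± 90.7), overlapping transitional neutrophils (69.5 ± 44.1). Asns was lowest in T cells (5.46 ± 7.07) and mature B cells (14.4 ± 5.14), although mature B cells ranked high for the serine and folate enzymes. With TMM factors in the levels the top population changed for Psat1 (progenitors), Shmt2 (chondrocytes) and Trib3 (mature neutrophils).

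**Figure D3:**
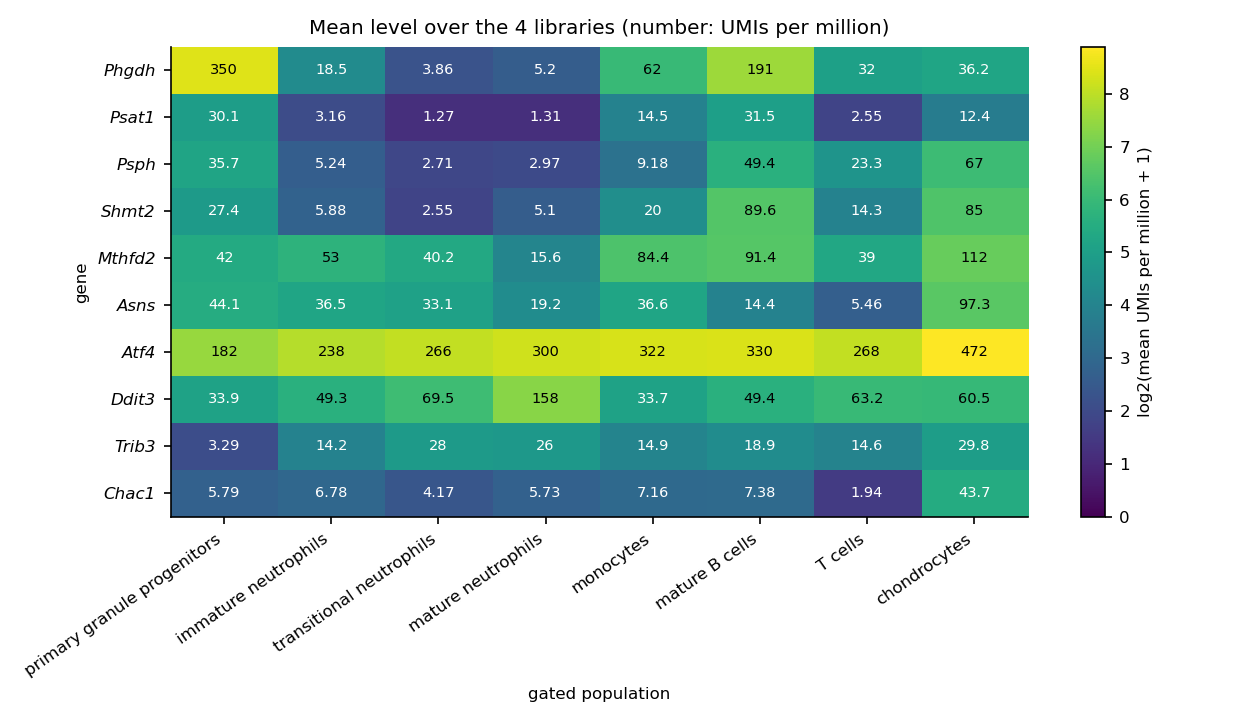
Mean level of each gene (rows) in 8 gated populations (columns), as CPM over the 4 libraries, coloured on a log2 scale. Phgdh is highest in progenitors (350.3) and mature B cells (191), Ddit3 in mature neutrophils (158), and Chac1 in chondrocytes (43.7).

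The genes most alike in pattern were sought over 49 sums of 18 populations, by the Pearson correlation of log2(level + 10) with the mean z score of a set of members. For the 6 enzymes these were Nars (0.904), Eif2s2 (0.889) and Rrp15 (0.858). For Atf4, Ddit3, Trib3 and Chac1 they were Jun (0.805), Akt1s1 (0.768) and P4ha1 (0.763). Atf4 correlated with the enzyme score at 0.300, Ddit3 at -0.262 and Trib3 at 0.009, while Phgdh correlated with the stress score at -0.289. The sums share libraries and depth, so these values are a description across genes and populations.

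The comparison of HLU with Ctrl asked whether unloading moved these genes in the whole tissue or in any population. In all kept cells together Phgdh was at 21.6, 27.2, 57.0 and 168 CPM, so that both HLU libraries lay above both Ctrl libraries and differed from each other by more than the Ctrl libraries did. The log2 difference was 2.32 ± 0.60 (SE, n = 2 per group, adjusted p = 0.0473 with edgeR). Shmt2 was at 42.4, 48.2, 21.0 and 19.8, with no overlap, and was lower by 1.08 ± 0.24 on the log2 scale (adjusted p = 0.0317). The other 8 members did not pass, and of 15385 genes 6.06% were higher and 17.1% lower in HLU. Both calls were lost with either control left out. With any library left out, the lone library of its group was assumed to vary like the other group. Without HLU replicate 1, 7 members were called, including Trib3 (-2.41), Ddit3 (-1.82) and Atf4 (-1.22), as were 7726 of 16113 genes. Without HLU replicate 2 Psat1 was called (0.74, adjusted p = 0.0464) beside Phgdh and Shmt2, as were 6043 of 15996 genes.

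The mix of cells differed between the groups. Chondrocytes numbered 1306, 1339, 21 and 46 of the 7340, 7635, 7757 and 9485 kept cells, mesenchymal stromal cells 1132, 641, 3 and 24, and primary granule progenitors 87, 120, 200 and 379. Shmt2 stood at 52.9 and 69.7 in Ctrl chondrocytes and Phgdh at 172 and 296 in Ctrl progenitors, and the part of cell mix in these differences was not tested. The summed level of 12 cartilage and bone transcripts in all kept cells was 42370.2, 35029, 1120 and 696, and that of 4 haemoglobin transcripts 428, 812, 2955 and 11821. An exact permutation test of 2 libraries against 2 cannot give a p below 0.333, so single values were not tested in that way.

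Within the 8 gates no member that could be tested passed, with 10 tested in immature and mature neutrophils, monocytes and chondrocytes, 9 in progenitors, transitional neutrophils and mature B cells, and 4 in T cells. The genes called in either direction were 0.208% of 8653 in progenitors, 2.61% of 10206 in immature neutrophils, 0.601% of 7989 in transitional neutrophils, 1.77% of 9332 in mature neutrophils, 0.97% of 7421 in mature B cells and 0.539% of 3896 in T cells. In monocytes and chondrocytes edgeR called 0.0% of 9743 and of 11601 genes, with 783 and 1169 at an unadjusted p under 0.05 and 237 and 132 called by DESeq2. At an unadjusted p under 0.05 there were 1 member in progenitors, 2 in immature, 2 in transitional and 1 in mature neutrophils, 2 in monocytes, 0 in mature B cells, 0 in T cells and 3 in chondrocytes. Of all genes 444 in progenitors, 1241 in immature, 744 in transitional and 1097 in mature neutrophils, 373 in mature B cells and 234 in T cells had such a p. DESeq2 called 2 members in chondrocytes and 0 in the other 7 gates.

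Phgdh did not pass in any gate, though both HLU values lay above both Ctrl values in 5 of the 8 populations. In single gates that held for 25.7% of all genes in immature neutrophils, 24.9% in monocytes, 25.8% in chondrocytes and 15.5% in mature neutrophils. The share of all genes with this in 5 or more populations was not counted. In progenitors Phgdh was at 172 and 296 in Ctrl and at 219 and 714 in HLU, a log2 difference of 0.74 with a 95% interval of -0.28 to 1.75. In immature neutrophils it was at 4.10 and 11.4 against 12.96 and 45.5, without overlap, and the log2 difference of 1.95 ± 0.75 had an adjusted p of 0.371 with edgeR. With the replicate number as a block the adjusted p was 0.016 there with edgeR (1.86 ± 0.36), but that number was not taken to pair the mice. In monocytes it was at 23.7 and 35.2 against 67.5 and 122 (1.62 ± 0.43, adjusted p = 0.315), and in mature B cells at 181 and 123 against 252 and 207 (0.50 ± 0.31, adjusted p = 0.998). Mature neutrophils overlapped, at 3.08 and 4.54 against 8.74 and 4.45. Without HLU replicate 1 the log2 difference of Phgdh was 1.23 in progenitors, 2.61 in immature neutrophils and 1.99 in monocytes. That fit holds a lone HLU library, which was assumed to vary like the controls.

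**Figure D4:**
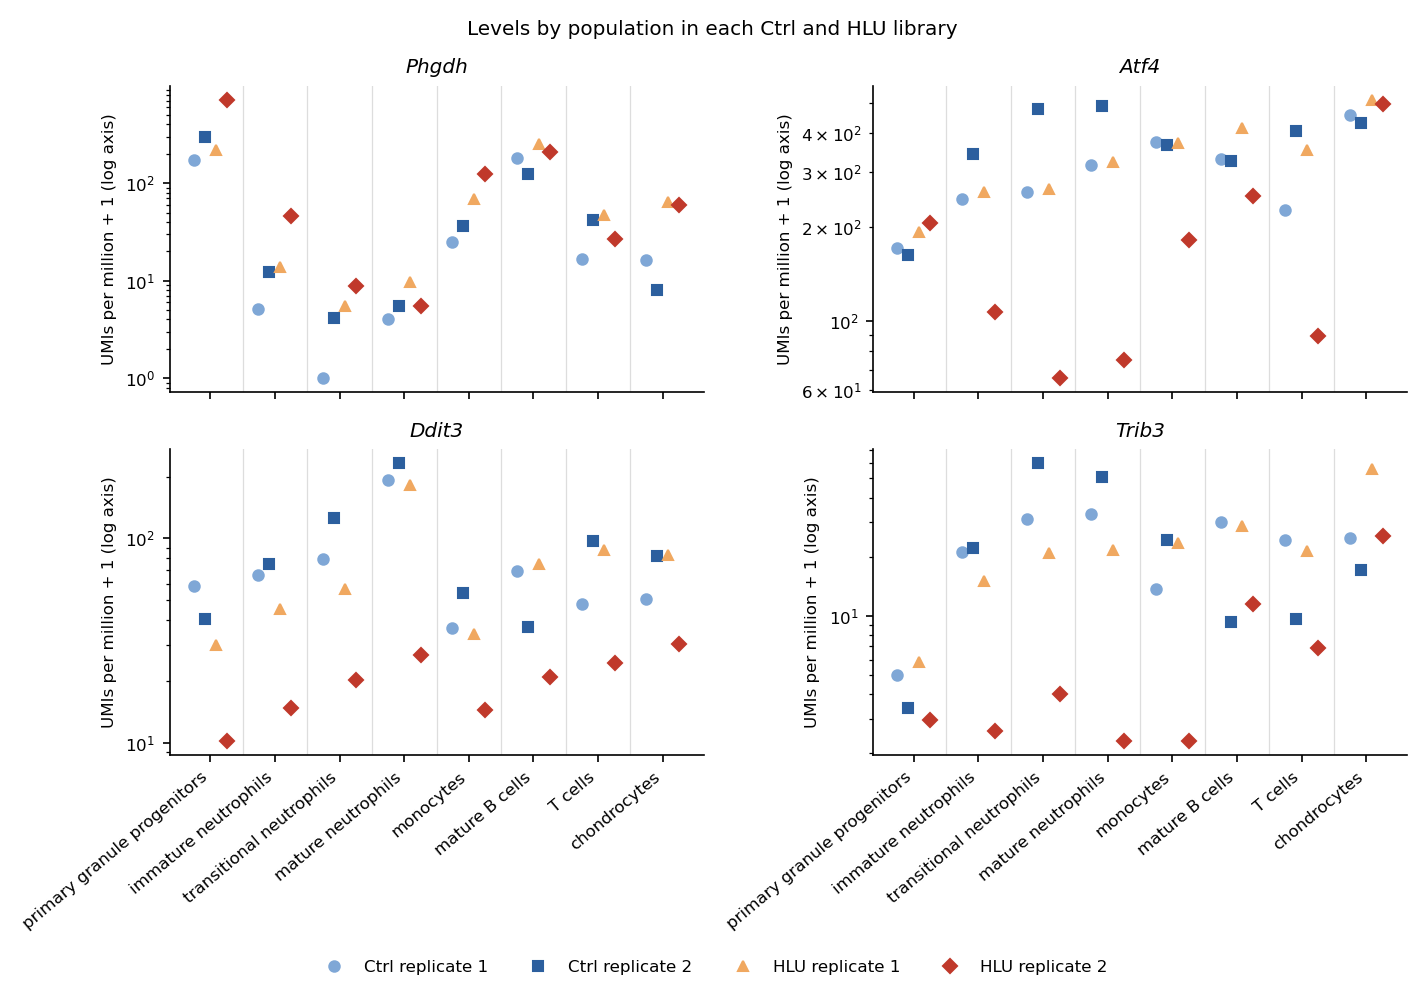
Levels of Phgdh, Atf4, Ddit3 and Trib3 in each Ctrl (blue) and HLU (orange, red) library in 8 populations, in CPM plus 1 on log axes, 1 point per library. HLU replicate 2 (red diamonds) lies below the other 3 libraries for Ddit3 in all 8 populations and for Atf4 in 6 of them, while HLU replicate 1 (orange) lies above both Ctrl libraries for Phgdh in monocytes (67.5 against 23.7 and 35.2) and chondrocytes (63.7 against 15.2 and 7.10).

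HLU replicate 2 held the lowest value of Ddit3 in all 8 populations, of Atf4 and of Trib3 in 6 each and of Chac1 in 2. The share of all genes that were lowest in that library was not counted, so whether these counts are particular to the members is not known. None of these genes passed the test with all 4 libraries. Ddit3 was at 65.4 and 73.7 in Ctrl and 44.1 and 13.8 in HLU immature neutrophils (-1.36 ± 0.46, adjusted p = 0.317 with edgeR), and at 192 and 232 against 181 and 25.8 in mature neutrophils (-1.04 ± 0.70, 0.587). Trib3 was at 31.8 and 50.1 against 20.6 and 1.31 in mature neutrophils (-1.94 ± 0.94, 0.485). Atf4 was at 316 and 486 against 323 and 74.2 there, so that HLU replicate 1 lay between the controls. Without HLU replicate 1, 5 members were called in mature neutrophils, Trib3 at -4.47, Ddit3 at -2.55, Shmt2 at -2.55, Atf4 at -1.94 and Mthfd2 at -1.92, and 4 in immature neutrophils, where that setting called 3792 of 9318 and 3948 of 10214 genes. Without HLU replicate 2, the log2 difference was -0.81 for Ddit3 in immature neutrophils and -1.09 for Trib3 in mature neutrophils. In both settings the lone HLU library was assumed to vary like the controls.

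The genes known to respond to dissociation were read beside these values, and their order over the libraries differed between gates. They summed to 1400.4, 1407, 1425 and 1067 CPM in progenitors and to 8292, 7216, 12217 and 3191 in chondrocytes. Their summed level in mature neutrophils was 7164, 6655, 4884 and 2450.2 CPM, and in immature neutrophils 5104, 3104, 1822 and 959, with all 15 genes detected in every library. The summed level of the 20 ATF4 and stress response targets was 6183, 7673, 5259.6 and 1171 in mature neutrophils and 2422, 2769.7, 1986 and 419 in immature neutrophils. Cebpb alone was at 2830 ± 1740 CPM in mature neutrophils (mean ± SD, n = 4), so it weighs heavily in that sum. Cartilage and bone transcripts in mature neutrophils summed to 4166, 3023, 217 and 38.1. The part of dissociation, of free RNA from cartilage and of HLU replicate 2 in the stress genes' levels was not tested.

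Members whose HLU libraries both lay on the same side of both controls were counted beside all genes. In immature neutrophils 2 members (Phgdh and Psph) were above and 2 (Ddit3 and Trib3) below, against 25.7% of all genes above and 19.6% below. In mature neutrophils 0 were above and 3 (Shmt2, Ddit3 and Trib3) below, against 15.5% and 25.8%. In monocytes 5 were above (Phgdh, Psat1, Psph, Shmt2 and Mthfd2) and 2 below (Ddit3 and Chac1), against 24.9% and 17.9%. In chondrocytes 7 were above and 0 below, against 25.8% and 18.8%.

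In chondrocytes the 3 serine enzymes were among the 7 of 10 members that lay higher in both HLU libraries, without passing the test. Psph was at 29.5 and 13.7 in Ctrl and 104.6 and 120.4 in HLU (2.16 ± 0.43, adjusted p = 0.302 with edgeR), Phgdh at 15.2 and 7.10 against 63.7 and 59.0 (2.22 ± 0.47, 0.305), and Psat1 at 3.90 and 1.79 against 36.4 and 7.37 (2.48 ± 0.87, 0.437). The HLU sums came from 21 and 46 cells, and the Psat1 values there rested on 8 and 3 UMIs. With the replicate number as a block Psph (2.26 ± 0.52, adjusted p = 0.00397) and Phgdh (2.33 ± 0.57, 0.00963) were called, and DESeq2 called the same genes (0.0184 and 0.0229). The replicate number was not taken to pair the mice, and with the libraries paired crosswise 2 members were called as well. Immature neutrophil markers held 0.0345% and 0.071% of the UMIs of Ctrl chondrocytes and 0.165% and 0.210% of those of HLU chondrocytes, and their part was not tested.

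The HLU effect in progenitors was set against that in mature neutrophils through an interaction term with the library as a block. None of the 10 members passed, where 0.0381% of 10491 genes did, and DESeq2 also called 0 members. At an unadjusted p under 0.05 there were 2 members and 802 of the 10491 genes. The difference of the HLU effects was 2.39 ± 0.83 for Trib3 (adjusted p = 0.638 with edgeR), 1.79 ± 0.79 for Shmt2 (0.65) and -0.46 ± 0.63 for Phgdh (0.872). Without HLU replicate 1 the differences included 3.48 for Trib3, 3.09 for Shmt2, 2.62 for Mthfd2 and 1.74 for Atf4. That fit holds a lone HLU library, which was assumed to vary like the controls.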

How the data were processed

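Single-cell RNA from bone of 2 Ctrl and 2 HLU mice was measured with 10x 3' libraries. The deposited matrices hold raw UMI counts per gene and cell, which per the labels the authors made with Cell Ranger 6.0.0 on mm10, and the submitters' processing notes also list Seurat 4.1.0. Cells with 1000 to 40000 UMIs and at most 10% mitochondrial UMIs were kept, and 20 cells per library were needed for a population. Cells were gated by their marker UMIs per 10000, with thresholds set after seeing the marker UMIs. Counts were summed per library and gate and tested on all genes with edgeR 4.0.16 (quasi-likelihood, TMM, filterByExpr, Benjamini-Hochberg adjustment) in R 4.3.3, with the library as a block between stages. A gene was called at an adjusted p under 0.05. Levels are counts per 1000000 UMIs (CPM) without TMM factors, whereas fold changes carry them, so their signs can differ.

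Alternatives were DESeq2 1.42.0, no filter on low counts, no TMM, each library left out, the replicate number as a block, stricter gates, removal of cells over 0.2% haemoglobin UMIs and removal of putative doublets (Scrublet in scanpy 1.11.5, 0.8% per 1000 cells), which stayed in otherwise. The comparisons of progenitors with immature neutrophils, of dividing cells and of monocytes, and the fits without TMM, were added after seeing the data. Precursor B cells were fitted on 3 libraries in place of the 4 planned, and early against late erythroid cells was not run because no library held 20 early cells. All 10 members were named, with up to 4 called genes of each wider list by largest change between progenitors and mature neutrophils, and 3 most alike genes for each set of members. The members and lists were chosen with earlier results of these data known. The scripts were tested on simulated data. Same-numbered libraries had correlations of their deviations from -0.147 to 0.257 across populations, so the numbers were not taken to pair the mice. Depth was 45347595 to 87604282 kept UMIs per library.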

Additional observations from a re-analysis of the deposited data

How the results depend on the processing

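Stage comparisons. Between progenitors and mature neutrophils, cells thinned to 1000 UMIs gave 4629 genes called. Without the library block there were 4390 genes and 4 members called between immature and mature neutrophils, 3938 and 5 between progenitors and immature neutrophils, and 0 members in either comparison of dividing cells. For dividing cells that setting called 980 of 8470 genes in immature neutrophils and 140 of 6465 in progenitors. DESeq2 called 1 member in dividing immature neutrophils (2778 of 9237 genes) and 0 in dividing progenitors (350 of 7551). For precursor B cells against mature B cells, genes called by DESeq2 numbered 611, with 0 members. Without TMM factors 3 members and 594 of 7551 genes were called in dividing progenitors, and Asns stood at 0.93 (log2) in monocytes against -0.00 with these factors. With a library left out, 2576 to 3512 genes and 1 to 2 members were called in dividing immature neutrophils, and 500 to 1248 genes and 0 to 4 members in precursor B cells.

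HLU against Ctrl. With a library left out, 848 to 7726 genes and 0 to 7 members were called in all kept cells, 0 to 2 members in progenitors, 0 to 4 in immature, 0 to 3 in transitional and 0 to 5 in mature neutrophils, 0 to 6 in monocytes, 0 to 1 in mature B cells, 0 to 2 in T cells and 0 to 4 in the interaction. The genes called reached 1494 in progenitors, 3948 in immature, 886 in transitional and 3792 in mature neutrophils, 3226 in monocytes, 751 in mature B cells, 280 in T cells and 1754 in the interaction, each without HLU replicate 1. The lone library of a group was then assumed to vary like the other group. With no filter on low counts 1 member was called in progenitors, 3 in immature, 2 in transitional and 1 in mature neutrophils and 1 in monocytes. In the same order, that setting called 214 of 15198, 1106 of 16837, 477 of 14690, 1071 of 16403 and 686 of 16059 genes. DESeq2 called 2 members and 132 of 11601 genes in chondrocytes. The replicate block called 1 member in immature neutrophils (399 of 10206 genes), 2 in chondrocytes (109 of 11601) and 2 in all kept cells (3428 of 15385). The last were Phgdh and Chac1, with Shmt2 lost at an adjusted p of 0.0715 with edgeR. The crossed pairing called 2 members and 198 of 11601 genes in chondrocytes. The same-numbered libraries share only a number. The causes of these changes were not tested. Depth limits the low genes most: Psat1 was seen in 2 to 14 mature neutrophils per library.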

Other observations

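Some populations had 20 cells in only 1 or 2 libraries and entered no comparison. Late erythroid cells, 58 in HLU replicate 1 and 416 in HLU replicate 2, held Asns at 28.2 and 233 CPM, Ddit3 at 70.5 and 304 and Trib3 at 9.40 and 97.9, so HLU replicate 2 was the higher library there, unlike in the 8 populations above for Ddit3. The 123 monocyte progenitors of HLU replicate 2 held Phgdh at 693 and Psat1 at 52.3, near the 714 and 56.9 of the primary granule progenitors of that library, with Ddit3 at 7.51 and Trib3 at 0.577. In the 24 plasmacytoid dendritic cells of HLU replicate 1, Phgdh stood at 264, Mthfd2 at 269.7 and Trib3 at 80.9. In the 26 megakaryocytes of HLU replicate 2, Asns stood at 137.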
